A study of Mus musculus with 36 samples.

Results

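The 9 pyramidal-neuron genes described here were followed in the mouse hippocampus across 36 bulk RNA sequencing libraries: 4 genes that mark field CA1 (Wfs1, Fibcd1, Pou3f1, Mpped1) and 5 that mark fields CA2 and CA3 (Rgs14, Pcp4, Amigo2, Bok, Iyd). They were taken by symbol as given marker genes, 9 of 50559 genes in the count table, and all 9 passed the filter on low counts that left 25382 genes to test. The study asked how human amyloid precursor protein and tau transgenes, alone and together, act on the hippocampus of mice before and after spatial learning. All mice were female and 6 months old. The groups were WT naive (6 libraries), APP naive (5), Tau naive (4), APP/Tau naive (6), WT trained (5), APP trained (3), Tau trained (4) and APP/Tau trained (3).

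APP mice carried the heterozygous APP (Sw,Ind) transgene of line J9, Tau mice the heterozygous tau P301S transgene of line PS19, and APP/Tau mice both, all on a C57BL/6 background. Every group, WT included, also carried Pvalb-IRES-Cre and 1 RiboTag allele, which tags ribosomes in parvalbumin interneurons. The libraries hold the input fraction of the lysate of both hippocampi, so no cell type was selected. Each transgenic genotype rests on 1 line, whose transgene is driven by a PDGF-B promoter in J9 and by the mouse prion protein promoter in PS19. Naive mice had no maze experience and were kept in home cages. Trained mice swam in the Morris water maze, 6 trials a day for 5 days, until they could find a submerged platform. Their memory was probed 24 hours later, and their tissue was taken 2 hours after that. All mice had been handled on 3 days beforehand.

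Pyramidal neurons of the CA fields carry the main excitatory path of the hippocampus. Granule cells of the dentate gyrus project to CA3, CA3 projects to CA1, and CA2 lies between them and is known for its part in social memory. CA1 is the main output and is among the first hippocampal fields to be lost in Alzheimer disease. The fields express different genes, which is why such markers are read as a map of the tissue. Most of them are also expressed outside the hippocampus, for example Wfs1 in the amygdala, Pou3f1 in cortex and Pcp4 in thalamus and striatum. In bulk tissue, fewer cells of a type and less RNA per cell cannot be told apart, and no value below says which field its reads came from.

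Promoter sequences are shown for 4 of the genes whose library-to-library variation is described below: Wfs1 and Amigo2, which varied in opposite directions, and Pcp4 and Iyd, the CA2 and CA3 genes with the largest spread. Of the 9 genes, 7 had an entry in the RefSeq promoter table of build GRCm38.p6, which is not the mm39 build of the counts. Pou3f1 and Rgs14 had none. Each sequence is the 250 bases before the annotated start, 5′ to 3′ on the gene's strand, and capitals mark a TATAAA match. The positions are chr5:36988983-36989232 (minus strand) for Wfs1, chr15:97247288-97247537 (minus) for Amigo2, chr16:96467356-96467605 (plus) for Pcp4 and chr10:3540024-3540273 (plus) for Iyd.
Wfs1: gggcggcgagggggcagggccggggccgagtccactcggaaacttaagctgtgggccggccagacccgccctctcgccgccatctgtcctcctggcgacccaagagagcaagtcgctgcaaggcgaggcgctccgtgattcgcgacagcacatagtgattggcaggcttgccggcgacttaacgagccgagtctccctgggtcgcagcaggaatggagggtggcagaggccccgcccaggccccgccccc
Amigo2: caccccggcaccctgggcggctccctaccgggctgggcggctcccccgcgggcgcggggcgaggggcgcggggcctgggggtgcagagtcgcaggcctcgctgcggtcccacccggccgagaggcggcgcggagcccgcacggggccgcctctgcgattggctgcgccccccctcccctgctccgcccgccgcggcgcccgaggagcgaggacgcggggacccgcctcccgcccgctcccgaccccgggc
Pcp4: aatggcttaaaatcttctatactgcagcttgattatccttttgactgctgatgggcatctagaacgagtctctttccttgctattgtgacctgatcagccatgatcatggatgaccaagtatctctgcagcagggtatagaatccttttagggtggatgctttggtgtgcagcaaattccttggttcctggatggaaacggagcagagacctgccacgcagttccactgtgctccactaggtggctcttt
Iyd: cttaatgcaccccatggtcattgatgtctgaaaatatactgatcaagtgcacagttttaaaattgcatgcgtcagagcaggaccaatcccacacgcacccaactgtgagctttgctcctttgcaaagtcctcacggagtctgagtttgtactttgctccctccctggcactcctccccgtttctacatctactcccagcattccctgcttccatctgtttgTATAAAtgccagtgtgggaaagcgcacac

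The promoters differed widely in base composition. G and C made up 84.0% of the Amigo2 window, 69.6% of the Wfs1 window and 71.6% of the Fibcd1 window, against a median of 52.4% over 32851 promoter windows of the same length. The Pcp4 and Iyd windows held 46.8% and 48.4%, and the Bok window 55.2%. Mpped1 had 2 annotated starts, with 88.8% and 46.8%. CpG dinucleotides numbered 38 in the Amigo2 window and 23 in the Wfs1 window, against 3 for Pcp4 and 5 for Iyd. TATAAA, read on both strands, was found in 1 of the 8 member windows and in 12.37% of all windows. The 1 window was that of Iyd, where TATAAA lay on the gene's strand and began at position -29 from the start. The E-box CANNTG, which reads the same on both strands, was found in 3 of the 8 member windows and in 66.22% of all windows. Wfs1 held 1 E-box, CATCTG at position -170, and Iyd held 3, none of which overlapped its TATAAA. The octamer ATGCAAAT, the TCF/LEF motif CTTTGAT, the cyclic AMP response element TGACGTCA and a MEF2 pattern (CTA and TAG with 4 bases between), each read on both strands, were in none of the 8 member windows and in 1.6%, 3.21%, 1.55% and 3.2% of all windows. These counts describe letters in the windows shown.

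The libraries held 69.15 to 124.8 M counts each (M stands for mega), and the lowest count of a member in any library was 174, for Iyd. The other 8 genes had at least 1742 counts in every library. Excitatory neuron genes were abundant throughout, with Slc17a7, a vesicular glutamate transporter, at 837 to 1383 CPM (counts per mega count of the library total, scaled by TMM). Of the 36 libraries, 2 stood apart in striatal markers or in Prnp for their label. The WT trained replicate 4 library had a striatal score of 2.44, where the other 35 lay between -0.47 and 0.50. A score is the mean log2 CPM of a marker list in a library minus its mean over all libraries. In that library the dopamine receptor gene Drd2 stood at 22.8 CPM and Adora2a at 26, against medians of 3.53 and 1.59 over all libraries. In the library labelled Tau trained replicate 4, Prnp, the gene whose promoter drives the tau transgene, stood at 846 CPM. The 16 other libraries labelled with Tau lay between 1423 and 2142 CPM and those labelled without Tau between 728 and 879. Both libraries were kept under their labels, and values without them are given where a result rests on them. Choroid plexus scores ran from -2.56 to 2.58 over the libraries. Thalamic scores ran from -0.70 to 1.07. The highest were those of Tau naive replicate 2 (1.07), APP/Tau trained replicate 3 (1.05) and APP naive replicate 2 (1.02). Tcf7l2 was highest in APP/Tau trained replicate 3, at 46.4 CPM against a median of 6.98. That library also had the lowest Slc17a7 (837 CPM) and the lowest score of the CA1 members (-0.38).

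None of the 9 genes passed the threshold in any of 18 comparisons (edgeR's quasi-likelihood test, Benjamini-Hochberg adjusted p under 0.05 over 25382 genes). Libraries of the 2 groups overlapped for every gene in the 10 direct comparisons of groups, except for Rgs14 between trained APP and WT mice (2.54% of all genes did not overlap there) and Pou3f1 between trained and naive Tau mice (10.7%). When the groups were put in order of mean CPM for each gene, neighbours overlapped in each of the 63 pairs, which ordering by the means itself makes likely. The levels are given gene by gene below, as mean ± SD over libraries. They are not corrected for gene length, so they are compared between groups and not between genes.

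**Figure D1:**
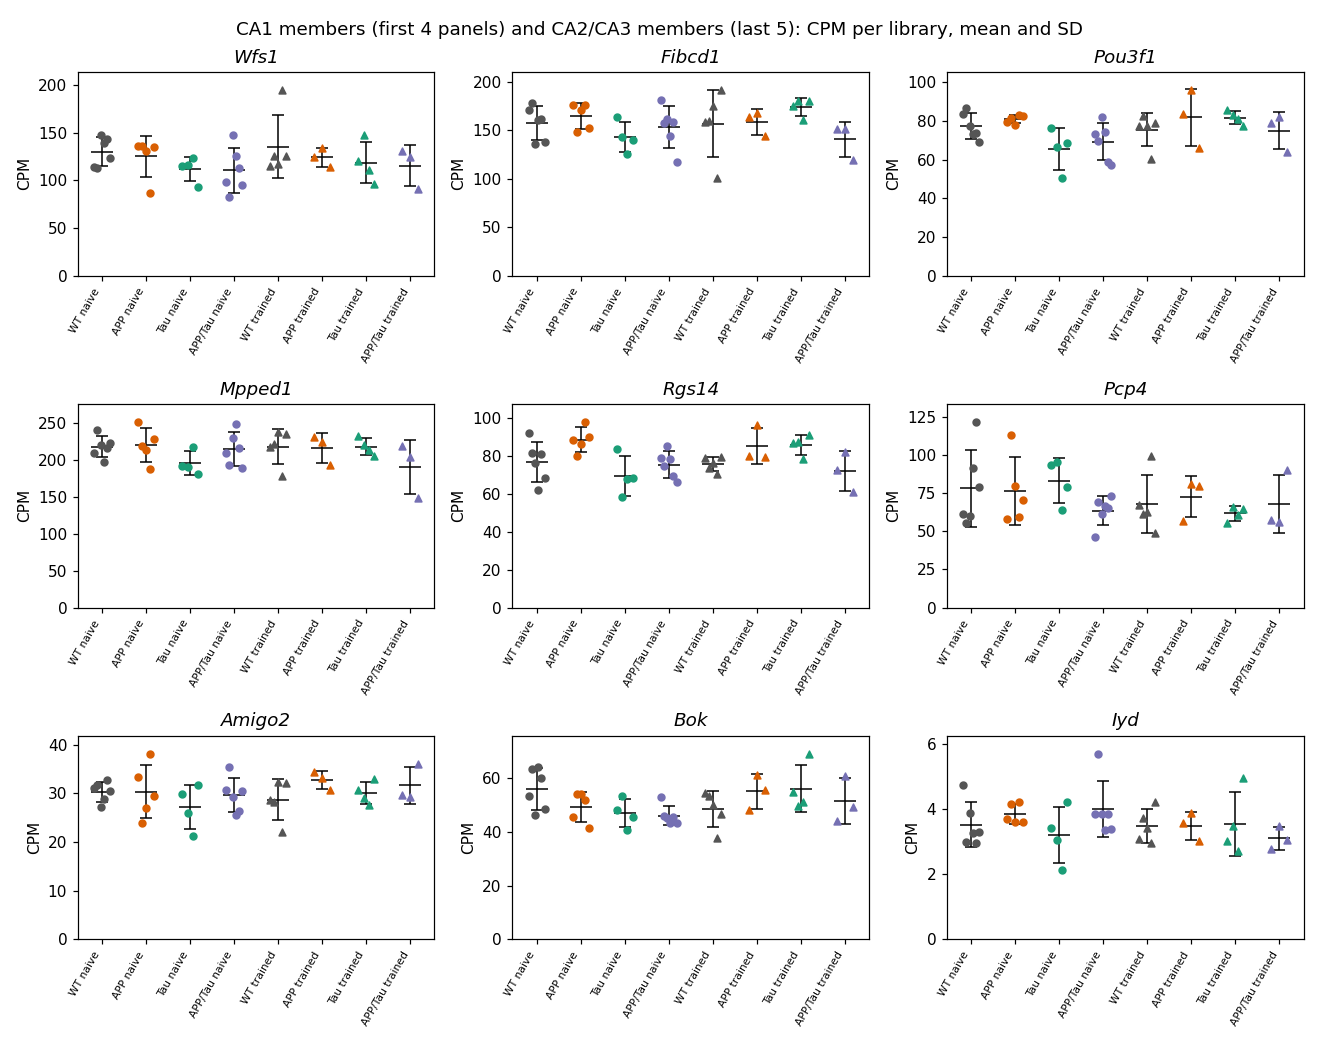
CPM (linear axis from 0) of the 9 genes in each library of the 8 groups, with 1 point per library (circles naive, triangles trained, colours for genotypes) and bars for the mean and SD of each group. Ranges overlap in the direct comparisons of groups, except for Rgs14 between trained APP and WT mice and Pou3f1 between trained and naive Tau mice. Some groups that were not compared directly lie apart. Wfs1 in WT trained replicate 4 (194 CPM) and Pcp4 in WT naive replicate 5 (122 CPM) are the highest points of their panels.

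Wfs1 encodes wolframin, an endoplasmic reticulum membrane protein that is mutated in Wolfram syndrome. In naive WT mice it ran from 113 to 148 CPM with a median of 131, and in naive APP/Tau mice from 82.7 to 147 with a median of 106. The naive APP libraries held 136, 136, 131, 87.1 and 135 CPM, and the naive Tau libraries 115, 116, 123 and 93.5. These ranges overlap, and the lowest naive values belong to APP/Tau and APP mice. After training, the WT libraries held 115, 125, 117, 194 and 126 CPM, the APP libraries 124, 134 and 114, the Tau libraries 120, 148, 111 and 95.9, and the APP/Tau libraries 131, 124 and 91.4. The value of 194 belongs to the library with the high striatal score. Group means ran from 110 ± 23.5 CPM (SD, n = 6) in naive APP/Tau mice to 135 ± 33.2 (n = 5) in trained WT mice.

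Fibcd1 encodes a transmembrane receptor for acetylated ligands and is a marker of CA1. It ranged from 135 to 178 CPM (median 161) in naive WT mice and from 117 to 181 (median 158) in naive APP/Tau mice. The naive Tau libraries held 163, 142, 126 and 140 CPM and the trained Tau libraries 175, 180, 161 and 180. The trained Tau values lie above all but 1 of the naive Tau values. Naive APP libraries held 176, 148, 171, 176 and 152 CPM, trained WT libraries 158, 159, 175, 100 and 191, trained APP libraries 164, 168 and 144, and trained APP/Tau libraries 151, 152 and 120. The trained Tau group had the highest mean, 174 ± 9.21 (n = 4), and the trained APP/Tau group the lowest, 141 ± 18.2 (n = 3). The lowest library of all was WT trained replicate 4, at 100.

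Pou3f1 encodes a POU-domain transcription factor expressed in CA1 and in cortical projection neurons. It lay at 69.1 to 86.6 CPM (median 75.6) in naive WT mice and at 57.0 to 82.1 (median 71.2) in naive APP/Tau mice. The naive Tau libraries held 76.3, 66.5, 50.6 and 68.4 CPM and the trained Tau libraries 85.5, 83.1, 81.0 and 77.2. All trained Tau values lie above all naive Tau values. The APP libraries held 79.3, 81.6, 78.0, 83.1 and 82.4 CPM when naive and 83.4, 95.8 and 66.3 after training. The trained WT libraries held 77.3, 82.5, 77.6, 60.5 and 79.2 CPM, and the trained APP/Tau libraries 78.8, 82.2 and 64.1. Naive APP mice were the tightest group, at 80.9 ± 2.17 (n = 5). Mpped1, a metallophosphoesterase-domain gene, ranged from 148 to 251 CPM over all libraries. Its group means lay between 190 ± 36.8 (n = 3) in trained APP/Tau mice and 220 ± 22.7 (n = 5) in naive APP mice.

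Rgs14 encodes a regulator of G protein signalling that limits synaptic plasticity in mouse CA2. It lay at 61.9 to 92.2 CPM (median 78.5) in naive WT mice and at 66.1 to 85.1 (median 76.4) in naive APP/Tau mice. The APP libraries held 88.4, 79.8, 86.3, 97.6 and 90.1 CPM when naive and 79.9, 96.0 and 79.5 after training. The trained APP values lie just above the highest trained WT value, 79.4. The other trained WT libraries held 78.6, 73.6, 76.2 and 70.1 CPM. The Tau libraries held 83.6, 58.0, 67.6 and 68.2 CPM when naive and 86.6, 87.1, 78.4 and 91.1 after training, and the trained APP/Tau libraries 72.7, 82.2 and 61.1. Group means ran from 69.4 ± 10.6 (n = 4) in naive Tau mice to 88.4 ± 6.45 (n = 5) in naive APP mice.

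Pcp4 encodes a small calmodulin-binding protein and is a marker of CA2. It had the largest spread of the 9 genes, a within-group SD of 0.332 on the log2 scale. Naive WT libraries ran from 55.7 to 122 CPM with a median of 70.3 and naive APP/Tau libraries from 46.4 to 73.1 with a median of 65.9. The APP libraries held 58.3, 113, 80.0, 59.4 and 70.9 CPM when naive and 57.1, 81.4 and 79.9 after training. The Tau libraries held 93.6, 95.8, 64.2 and 79.0 CPM when naive and 55.8, 66.2, 60.6 and 64.4 after training. The naive Tau libraries other than that at 64.2 lie above all trained Tau libraries. The trained WT libraries held 67.3, 61.1, 63.0, 99.5 and 49.0 CPM and the trained APP/Tau libraries 57.7, 56.2 and 90.0. In each of these groups 1 library lies well above the rest.

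Amigo2 encodes a leucine-rich-repeat adhesion protein of CA2 and neighbouring CA3 neurons. It ran from 21.3 to 38.0 CPM over all libraries, with group means from 27.2 ± 4.57 (n = 4) in naive Tau to 32.7 ± 1.91 (n = 3) in trained APP mice. Bok encodes a BCL2-family protein that is high in CA3. It lay at 46.2 to 64.3 CPM (median 56.8) in naive WT mice and at 43.3 to 53.0 (median 45.3) in naive APP/Tau mice. The APP libraries held 45.5, 54.1, 54.1, 51.8 and 41.5 CPM when naive and 48.3, 61.4 and 55.7 after training. The Tau libraries held 48.1, 53.6, 40.8 and 45.6 CPM when naive and 55.0, 49.5, 51.2 and 69.0 after training. Of the 6 naive APP/Tau libraries, only replicate 1 lies above 46.0 CPM. The value of 69.0 belongs to the library labelled Tau trained replicate 4. The trained WT libraries held 54.6, 53.5, 50.0, 37.8 and 46.8 CPM and the trained APP/Tau libraries 44.3, 61.0 and 49.4. Iyd encodes iodotyrosine deiodinase, an enzyme known from the thyroid whose transcript marks CA3 in mice. It stood at 2.13 to 5.68 CPM, with group means from 3.10 ± 0.361 (n = 3) in trained APP/Tau mice to 3.99 ± 0.86 (n = 6) in naive APP/Tau mice.

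Most of the variation of these genes lay between libraries of the same group. The within-group SD of log2 CPM was 0.252 for Wfs1, 0.267 for Iyd, 0.200 for Fibcd1, 0.185 for both Amigo2 and Bok, 0.172 for Pou3f1, 0.154 for Rgs14 and 0.15 for Mpped1. The median over 13921 genes at a mean log2 CPM of at least 1.5 was 0.133, so each member varied more than the median gene. The share of variance that lay between the 8 groups was highest for Rgs14 (42.5%), Pou3f1 (34.7%) and Bok (31%), against a median of 24.7% over the same genes. It was 16.5% to 22.5% for the other 6 members. This share is not corrected for the number of groups, so it lies above 0 even where groups do not differ.

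In naive APP mice the CA genes lay close to WT, and the largest difference was in Rgs14. None of the 9 was called, where 0.0355% of all genes were (9 genes). Rgs14 was 0.20 higher on the log2 scale (standard error 0.0890, edgeR's quasi-likelihood adjusted p = 0.9998), and at an unadjusted p under 0.05 it was the 1 member found, against 3.68% of all genes. Leaving out WT naive replicate 4, WT naive replicate 6 or APP naive replicate 4 left Rgs14 between 0.15 and 0.17, with an unadjusted p no longer under 0.05. Median log2 differences were 0.041 for the CA1 genes and 0.0038 for the CA2 and CA3 genes, against -0.0077 for all genes. After training, none of the 9 was called between APP and WT mice, where 0.0276% of all genes were, and none had an unadjusted p under 0.05, where 5.84% did. Rgs14 was the 1 member whose trained APP and WT libraries did not overlap, as was the case for 2.54% of all genes. Averaged over tau genotype and training, APP carriers differed from non-carriers by -0.061 (Wfs1) to 0.097 (Amigo2) on the log2 scale, with none called (0.0985% of all genes) and none at an unadjusted p under 0.05 (9.95%). The 95% intervals of the 9 genes in that comparison lay within -0.28 and 0.25.

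In naive Tau mice 8 of the 9 CA genes stood below their WT level, Pcp4 being the exception, while 50.2% of all genes stood below 0. None was called, where 0.0276% of all genes were. Pou3f1 was 0.24 lower on the log2 scale (change -0.24, standard error 0.105, edgeR's adjusted p = 0.507). Bok had a change of -0.25 (standard error 0.114, adjusted p = 0.5107). These 2 genes had an unadjusted p under 0.05, against 9.31% of all genes. Median changes were -0.19 for the CA1 genes and -0.15 for the CA2 and CA3 genes, and -0.00076 for all genes. These values rest in part on single libraries. When 1 library at a time was left out, the CA2 and CA3 median ran from -0.24 (without Tau naive replicate 4) to -0.056 (without Tau naive replicate 3), and the CA1 median from -0.22 to -0.13. The change of Pou3f1 ran from -0.32 without Tau naive replicate 1 to -0.13 without replicate 3, and that of Bok from -0.32 to -0.19. Over all 48 alternative fits the value for Pou3f1 nearest 0 was -0.12. Omitting WT naive replicate 2 left 0 members with an unadjusted p under 0.05, and omitting Tau naive replicate 1 left 3. Choroid plexus scores lay at 1.12 to 2.46 in naive Tau and at -2.56 to 1.92 in naive WT libraries, and with that score as a covariate the change of Pou3f1 was -0.15, with an unadjusted p no longer under 0.05, and that of Bok -0.29. Thalamic scores reached 1.07 in naive Tau (median 0.74) and 0.895 in naive WT libraries (median 0.21). With that score as a covariate, added after the data were seen, the change of Pou3f1 was -0.19 and that of Bok -0.26. Only that of Bok then had an unadjusted p under 0.05. With the dentate score they were -0.21 and -0.21, and only that of Pou3f1 had such a p. The part of these tissues in these values was not tested further.

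In naive APP/Tau mice, Bok had a change of -0.28 from WT (standard error 0.101, edgeR's adjusted p = 0.6106). It was the 1 member at an unadjusted p under 0.05, where 7.48% of all genes were, and none was called, where 0.067% of all genes were. The change stayed below 0 in all 48 alternative fits, between -0.33 and -0.24, with an unadjusted p under 0.05 in each. The 9 changes ran from -0.30 (Pcp4) to 0.17 (Iyd). After training, none of the 9 was called between Tau and WT mice (0.303% of all genes) or between APP/Tau and WT mice (0.0552%), and none had an unadjusted p under 0.05, where 15.2% and 10.2% of genes did. Without WT trained replicate 4 and the library labelled Tau trained replicate 4, 2 members had an unadjusted p under 0.05 between trained APP/Tau and WT mice. That omission was chosen after the data were seen, and the share of all genes in that fit is not given here. The trained Tau changes ran from -0.19 (Wfs1) to 0.21 (Bok) and the trained APP/Tau changes from -0.23 (Wfs1) to 0.14 (Amigo2). The 6 genotype comparisons share their WT libraries within a training state.

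Averaged over APP genotype and training, all 9 genes stood lower in Tau carriers than in non-carriers, by small amounts, while 53% of all genes stood below 0. The changes ran from -0.17 for Wfs1 to -0.044 for Amigo2, with medians of -0.11 for the CA1 genes, -0.062 for the CA2 and CA3 genes and -0.0075 for all genes. None was called, where 0.835% of all genes were (212 genes). Those with an unadjusted p under 0.05, against 13.2% of all genes, were Wfs1 (-0.17, standard error 0.0835, edgeR's adjusted p = 0.3682), Pou3f1 (-0.12, standard error 0.0559, adjusted p = 0.3556) and Rgs14 (-0.11, standard error 0.0509, adjusted p = 0.3471). Without WT trained replicate 4 and the library labelled Tau trained replicate 4, the change of Wfs1 was -0.11, with an unadjusted p no longer under 0.05, and those of Pou3f1 and Rgs14 -0.13 and -0.12. The unadjusted p was no longer under 0.05 in 26 of 47 alternative fits for Wfs1, 19 for Pou3f1 and 15 for Rgs14. The count of 3 members ran from 0 to 4 when single libraries were left out, and was 0 without APP trained replicate 2, APP/Tau naive replicate 5 or 6, APP/Tau trained replicate 3 or Tau trained replicate 3. The 95% intervals of the 9 changes lay within -0.34 and 0.13. Not all parts of this average lay below 0. Between trained Tau and trained WT mice, 5 of the 9 genes stood above 0 and 4 below. Medians there were 0.058 for the CA1 genes and 0.066 for the CA2 and CA3 genes. Several of the 9 genes also varied together, as described below, so they are not 9 separate results.

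**Figure D2:**
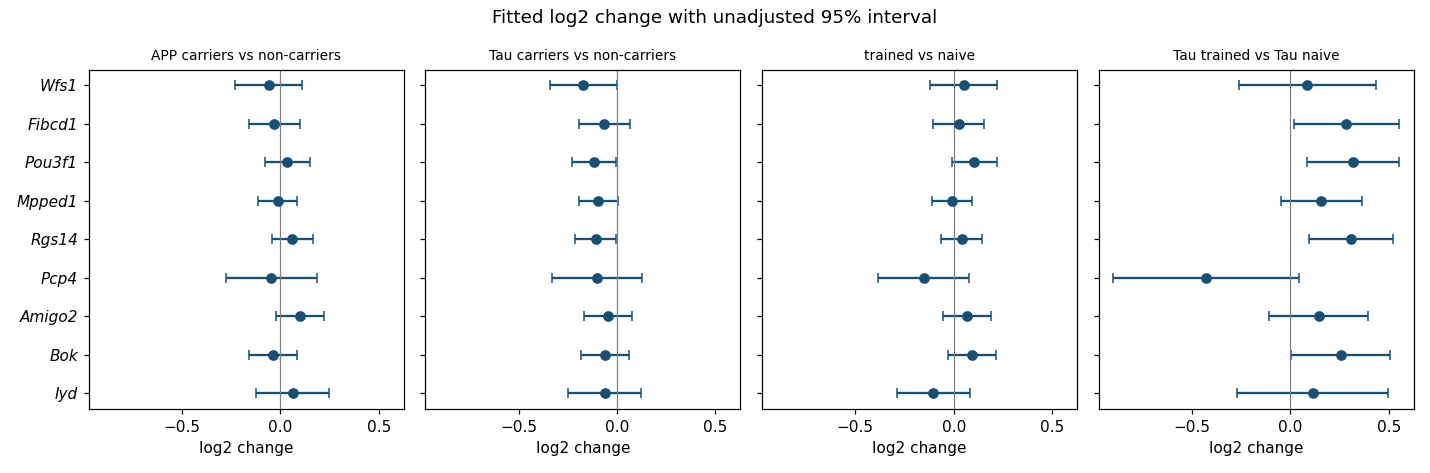
Log2 change (x axis) of each of the 9 genes in 4 comparisons, with unadjusted 95% intervals from edgeR's quasi-likelihood fit. The values for Tau carriers (-0.17 to -0.044) all lie left of 0, and in trained against naive Tau mice all but Pcp4 (-0.43) lie right of 0.

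Other markers of the same fields were compared between Tau carriers and non-carriers, and none of them was called. Of 7 other CA1 genes, 6 stood below 0, with a median change of -0.15. Gpr161, a G protein-coupled receptor gene, had a change of -0.20 (edgeR's adjusted p = 0.3075) and Spink8 of -0.15 (adjusted p = 0.3496). Of 8 other CA2 genes, 5 stood below 0, with a median of -0.018. Cacng5, an AMPA receptor auxiliary subunit, had a change of 0.38 (edgeR's adjusted p = 0.1932) and the growth factor gene Fgf2 of 0.11 (adjusted p = 0.4275). Of 6 other CA3 genes, 4 stood below 0, with a median of -0.021, Ociad2 at -0.099 (edgeR's adjusted p = 0.2969) and Coch at -0.26 (adjusted p = 0.5845). The 7 dentate granule genes had a median of -0.0063, with Dock10 at 0.12 (edgeR's adjusted p = 0.4615) and Lct at -0.12 (adjusted p = 0.6501).

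Genes shared by excitatory neurons also stood lower in this comparison. All 7 glutamatergic neuron genes stood below 0 in Tau carriers, with a median of -0.11. Of the myelin genes, all 6 oligodendrocyte genes rose, with a median of 0.36, led by Mbp (0.36, edgeR's quasi-likelihood adjusted p = 0.01139) and Mag (0.39, adjusted p = 0.0203). Between 1 and 6 of them passed when single libraries were left out, with 1 passing without APP trained replicate 1 and 1 without APP/Tau trained replicate 3, and 2 passed without the filter on low counts. A library's CPM values share 1 total, and the part of myelin RNA in the lower CA values was not tested.

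The largest differences with training were seen in Tau mice, and none passed the threshold. The trained Tau libraries are numbers 3, 4, 8 and 9 in the labels, and the naive Tau libraries 11, 33, 34 and 36. A difference with training cannot be told apart from one with library number in these mice, and what the numbers stand for is not given. In trained against naive Tau mice, 8 of the 9 genes stood above 0 and Pcp4 below (-0.43, with a 95% interval from -0.90 to 0.042), where 52.3% of all genes stood below 0. None was called, and 0% of all genes were, although 3707 genes (14.6%) had an unadjusted p under 0.05 and DESeq2 called 423. Rgs14 had a change of 0.31 (standard error 0.104, edgeR's adjusted p = 0.1693) and Pou3f1 of 0.32 (standard error 0.115, adjusted p = 0.1931). Fibcd1 had a change of 0.28 (standard error 0.131, edgeR's adjusted p = 0.3082) and Bok of 0.26 (standard error 0.124, adjusted p = 0.3358). These 4 of the 9 genes had an unadjusted p under 0.05. Pou3f1 was the 1 member whose groups did not overlap, as was the case for 10.7% of all genes. Median changes were 0.22 for the CA1 genes and 0.14 for the CA2 and CA3 genes, against -0.013 for all genes. With 1 library at a time left out, the CA2 and CA3 median ran from 0.044 (without Tau naive replicate 3) to 0.24 (without Tau naive replicate 4), and the CA1 median from 0.20 to 0.25. Of the 9 genes, 2 to 4 then had an unadjusted p under 0.05, with 2 when Tau naive replicate 3 or 4 or Tau trained replicate 1 or 4 was left out.

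Markers of other tissues also had changes away from 0 between the same trained and naive Tau libraries, and none of them was called. The 7 dentate granule genes all stood above 0 with a median of 0.43, and the 7 glutamatergic genes with a median of 0.19. The other CA1, CA2 and CA3 lists had medians of 0.21, 0.019 and 0.17. The 8 choroid plexus genes all stood below 0 with a median of -3.06 and the 7 thalamic genes with a median of -0.92, with choroid plexus scores of 1.12 to 2.46 in naive and -2.17 to 0.058 in trained libraries. With the choroid plexus score as a covariate the changes were 0.21 for Pou3f1, 0.26 for Rgs14, 0.23 for Fibcd1 and 0.31 for Bok. With the thalamic score, a covariate added after the data were seen, they were 0.20, 0.14, 0.11 and 0.28. With the dentate score they were 0.22, 0.24, 0.044 and 0.11. Without the library labelled Tau trained replicate 4 they were 0.35, 0.28, 0.27 and 0.15, in the same order of genes. An unadjusted p under 0.05 remained for Rgs14 and Bok with the choroid plexus score, for none of the 4 with the thalamic or the dentate score, and for Pou3f1 and Rgs14 without that library. Over all 48 alternative fits the change of Pou3f1 ran from 0.090 to 0.40 and that of Rgs14 from 0.14 to 0.41. For Fibcd1 the range was 0.044 to 0.35 and for Bok 0.11 to 0.32.

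In WT mice the 9 training changes ran from -0.21 (Bok) to 0.058 (Wfs1), in APP mice from -0.16 (Iyd) to 0.16 (Bok), and in APP/Tau mice from -0.35 (Iyd) to 0.16 (Bok). None of the 9 was called in any of these 3 comparisons, none had an unadjusted p under 0.05, and 0% of all genes were called by edgeR. At an unadjusted p under 0.05 stood 5.85% (1486 genes), 5.24% (1329) and 3.07% (780) of all genes, and DESeq2 called 1, 0 and 0. Averaged over the 4 genotypes, the changes ran from -0.15 (Pcp4) to 0.10 (Pou3f1), with none called, 0% of all genes called by edgeR, 7 by DESeq2, and 7.95% (2018 genes) at an unadjusted p under 0.05 against none of the members. Without WT trained replicate 4 and the library labelled Tau trained replicate 4, 1 member had such a p, and the share of all genes in that fit is not given here. The 95% intervals of the 9 averaged changes lay within -0.38 and 0.22.

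Interaction terms asked whether the training difference, or the joint effect of both transgenes, departed from what the single effects add up to. In the Tau by training interaction, Bok was 0.46 above additivity (standard error 0.163, edgeR's adjusted p = 0.4579), Rgs14 0.33 (standard error 0.137, adjusted p = 0.5095) and Pou3f1 0.35 (standard error 0.151, adjusted p = 0.5115). These 3 of 9 genes compare with 9.04% of all genes at an unadjusted p under 0.05. None was called, 0% of all genes were called by edgeR (2294 genes at an unadjusted p under 0.05), and DESeq2 called 15. Without WT trained replicate 4 and the library labelled Tau trained replicate 4, the terms were 0.27 for Bok, 0.27 for Rgs14 and 0.31 for Pou3f1, and none of the 3 had an unadjusted p under 0.05. With the choroid plexus score as a covariate, Bok stood at 0.51, while Rgs14 (0.29) and Pou3f1 (0.25) no longer had a p under 0.05. Over 47 alternative fits the terms ran from 0.27 to 0.53 for Bok, 0.21 to 0.43 for Rgs14 and 0.16 to 0.44 for Pou3f1. Bok was also the member with the smallest p in the APP by training interaction (0.36, standard error 0.165, edgeR's adjusted p = 1) and in the APP/Tau by training interaction (0.37, standard error 0.163, adjusted p = 0.9813). It was the 1 member at an unadjusted p under 0.05 in each, where 2.67% (678) and 4.14% (1052) of all genes were. Without WT trained replicate 4 the terms were 0.29 and 0.29, and without both libraries 0.27 and 0.29, with an unadjusted p no longer under 0.05 in any of these fits. The p was lost in 10 of 47 alternative fits for the first term and in 4 for the second. None of the 9 and 0% of all genes were called by edgeR in these 2 terms, and DESeq2 called 1 and 0. The 3 terms share the same WT libraries.

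Joint effects of the 2 transgenes were largest for Rgs14 after training, where the APP/Tau level lay below the sum of the single effects by 0.42 on the log2 scale (value -0.42, standard error 0.156, edgeR's adjusted p = 0.4685). It was the 1 member at an unadjusted p under 0.05, against 9.39% of all genes, though not without APP/Tau trained replicate 3 (-0.32) or APP trained replicate 2 (-0.33), and none was called, where 0.0118% of all genes were (3 genes). In naive mice the member with the smallest p was Pcp4 (-0.35, edgeR's adjusted p = 0.8375). None of the 9 was called, 0% of all genes were called by edgeR, 4 by DESeq2, and 7.13% (1810 genes) had an unadjusted p under 0.05 against none of the members.

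Within groups, several CA genes varied together from library to library. Correlations were computed over the 36 libraries on log2 CPM after subtracting group means, for 36 pairs of members. Two-sided permutation tests (100000 resamples, smallest p 1e-05) were adjusted by Benjamini-Hochberg over the 36 pairs. The shuffling ran over all libraries and did not allow for the 8 group means already subtracted. These p-values may therefore be somewhat too small, which matters most near the threshold. 13 pairs passed 0.05, 9 positive and 4 negative, and 6 passed without WT trained replicate 4, 5 of them among the 13. By Spearman's rho, 9 pairs passed, 8 of them among the 13. The share of pairs of other genes that would pass is not given here, so these counts are not particular to CA genes. Fibcd1, Pou3f1 and Rgs14 went together. For Fibcd1 and Pou3f1, r was 0.69 (rho 0.66, permutation p = 1e-05 and 2e-05, adjusted p = 0.00018), 0.58 without the 2 libraries farthest in Fibcd1 and 0.63 without WT trained replicate 4. Pou3f1 and Rgs14 had r = 0.63 (rho 0.68, permutation p = 5e-05 and 3e-05, adjusted p = 0.0006), and 0.69 without the 2 farthest libraries. Fibcd1 and Rgs14 had r = 0.54 (rho 0.67, permutation p = 0.00043 and 2e-05, adjusted p = 0.00387), and 0.55 without them.

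Wfs1, also a CA1 gene, had r = -0.26 with Fibcd1, 0.0084 with Pou3f1 and -0.0044 with Rgs14, none past 0.05, and varied against Amigo2. For Wfs1 and Amigo2, r was -0.70 (rho -0.67, permutation p = 1e-05 and 2e-05, adjusted p = 0.00018), -0.57 without the 2 libraries farthest in Wfs1 and -0.62 without WT trained replicate 4. It was -0.66 in the 21 naive and -0.76 in the 15 trained libraries. Wfs1 and Mpped1 had r = 0.36 over all libraries and 0.67 without WT trained replicate 4 (permutation test, adjusted p = 0.0675 and 0.00072). Amigo2 and Iyd had r = 0.51 (rho 0.44, permutation p = 0.00159 and 0.00769, adjusted p = 0.007155), and 0.40 without the 2 farthest libraries. The relations of Fibcd1 with Amigo2 (r = 0.51), Bok (0.52), Mpped1 (0.47) and Pcp4 (-0.50) were 0.35, 0.38, 0.30 and -0.37 without WT trained replicate 4 and then no longer passed. Mpped1 and Pcp4 had r = -0.51 (rho -0.54, permutation p = 0.00151 and 0.00077, adjusted p = 0.007155), -0.36 without the 2 farthest libraries and -0.42 without WT trained replicate 4, where it no longer passed. Their r was -0.25 in naive and -0.86 in trained libraries, a difference that was not itself tested. The other 3 pairs that passed were Pou3f1 with Mpped1 (0.45) and with Iyd (0.39), and Wfs1 with Iyd (-0.39), none of which passed without WT trained replicate 4.

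**Figure D3:**
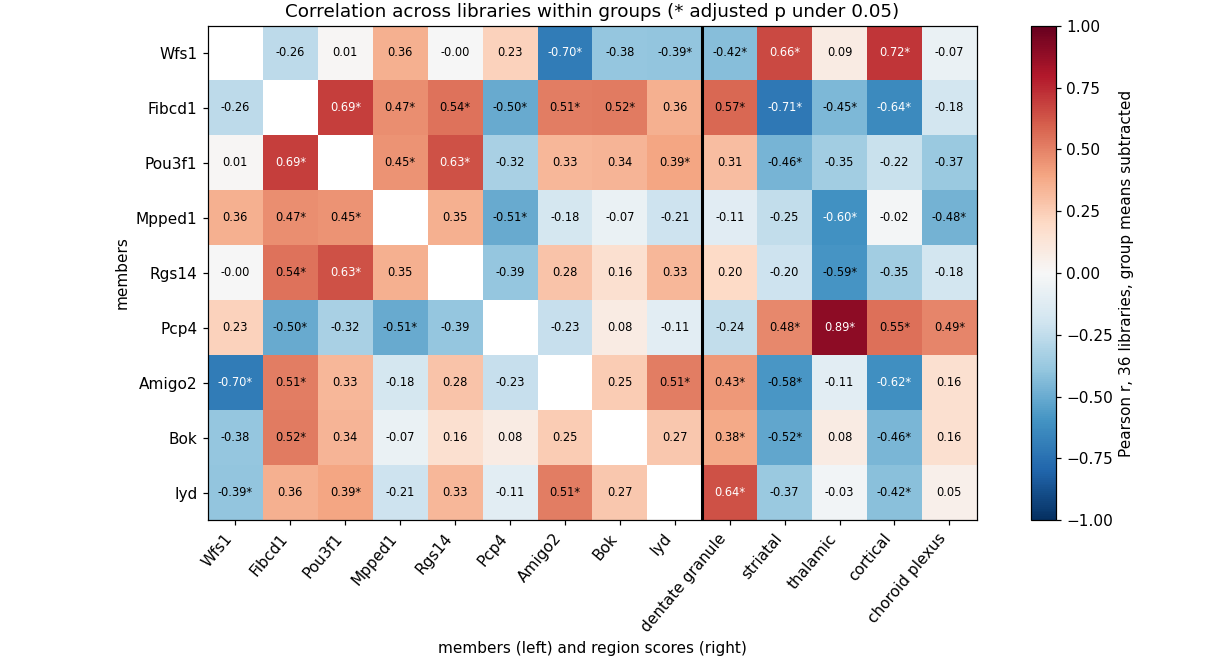
Pearson's r over 36 libraries, after subtracting group means, between the 9 genes and between each gene and 5 scores of neighbouring tissue, as a colour scale from -1 to 1, with asterisks where the adjusted permutation p was under 0.05. Pcp4 with the thalamic score (0.89) is the strongest cell, and the block of Fibcd1, Pou3f1 and Rgs14 (0.54 to 0.69) is positive.

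The same genes also varied with markers of tissue that borders the CA fields. Each member was set against the scores of 7 dentate granule, 9 striatal, 7 thalamic, 7 cortical and 8 choroid plexus genes, 45 relations in all, adjusted together. 23 passed 0.05, 10 positive and 13 negative, and 16 passed without WT trained replicate 4, 14 of them among the 23. The share of all genes that would pass with these scores is not given here. Pcp4 followed the thalamic score most closely, with r = 0.89 (rho 0.90, permutation p = 1e-05 for both, adjusted p = 0.00015). It was 0.87 without the 2 libraries farthest in Pcp4, 0.92 in naive and 0.85 in trained libraries, and between 0.87 and 0.91 when any 1 library was left out. The libraries with the highest Pcp4, WT naive replicate 5 and APP naive replicate 2, had thalamic scores of 0.895 and 1.02. Rgs14 and Mpped1 varied against the same score, with r = -0.59 (rho -0.59, permutation p = 0.00019 and 0.00016, adjusted p = 0.000855) and -0.60 (rho -0.57, permutation p = 0.00011 and 0.00032, adjusted p = 0.00055), and -0.64 and -0.50 without the 2 farthest libraries of each.

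Wfs1 followed the cortical score (r = 0.72, rho 0.64, permutation p = 1e-05 and 7e-05, adjusted p = 0.00015) and the striatal score (0.66, rho 0.73, permutation p = 1e-05 for both, adjusted p = 0.00015). Without the 2 libraries farthest in Wfs1 these were 0.57 and 0.61, and without WT trained replicate 4 they were 0.63 and 0.64. Amigo2 varied against both, at -0.62 and -0.58. Fibcd1 varied against the striatal score (r = -0.71, rho -0.52, permutation p = 3e-05 and 0.00131, adjusted p = 0.000225), at -0.55 without the 2 libraries farthest in Fibcd1 and -0.40 without WT trained replicate 4. Iyd followed the dentate granule score (r = 0.64, rho 0.67, permutation p = 3e-05 and 2e-05, adjusted p = 0.000225), at 0.63 without the 2 libraries farthest in Iyd, 0.79 in naive and 0.43 in trained libraries. The scores come from the same libraries and totals as the members, and the tissue actually present in each dissection was not measured.

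**Figure D4:**
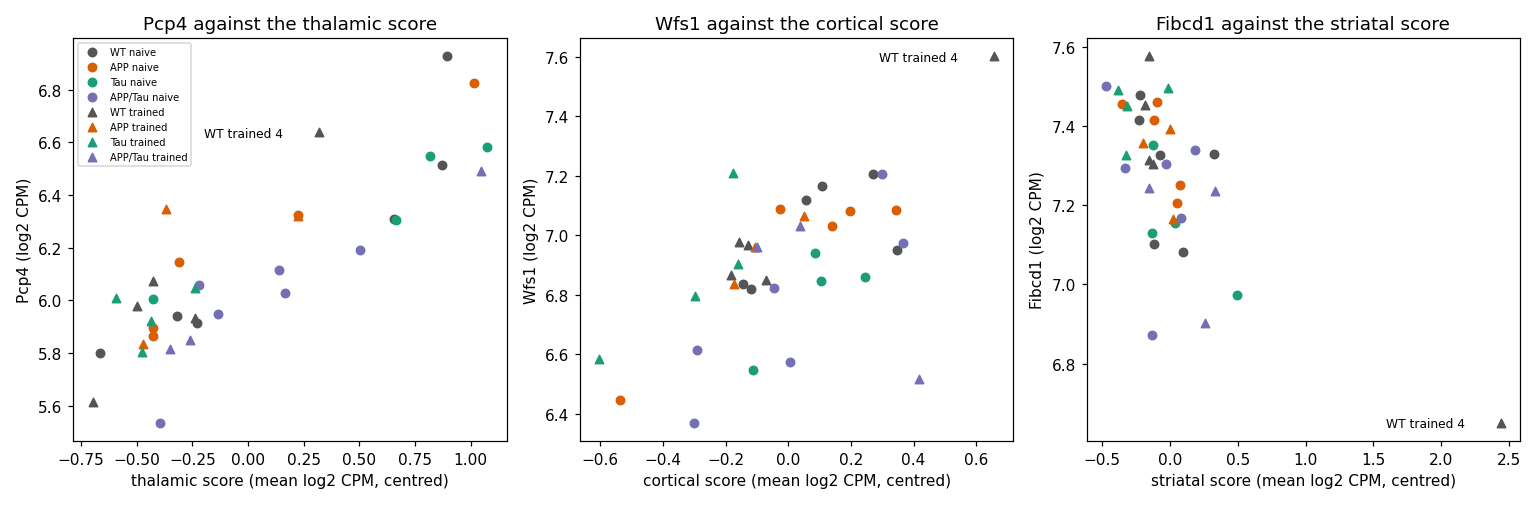
Log2 CPM of Pcp4, Wfs1 and Fibcd1 against the thalamic, cortical and striatal scores, with 1 point per library (circles naive, triangles trained, colours for genotypes) and group means not subtracted. Pcp4 is higher in libraries with a higher thalamic score (r = 0.89 with group means subtracted), and WT trained replicate 4 lies far to the right in the striatal panel (score 2.44).

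Genes with the most similar library-to-library pattern were sought among 13926 named genes at a mean log2 CPM of at least 0, by Pearson's r over the 36 libraries after subtracting group means. These values describe the top of a long ranking and carry no test. Fibcd1 was closest to Adra1d, an adrenergic receptor gene (r = 0.93), the AMPA receptor subunit gene Gria1 (0.87) and Lrrn2 (0.86). Pcp4 was closest to Patj (0.92), Adra1b (0.86) and Tcf7l2 (0.86), the last of which is in the thalamic list. Rgs14 was closest to Chrm1, a muscarinic receptor gene (0.88), Hspa2 (0.86) and Chn1os3 (0.85). Among the genes closest to Wfs1 were R3hdm2 (0.84) and Vopp1 (0.82). Mpped1 was closest to Rspo2 (0.85), Cdkl4 (0.83) and Vxn (0.81), and Pou3f1 to Actr3b (0.83), Neurod6 (0.82), which is in the glutamatergic list, and Sec14l1 (0.79).

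The other CA2 and CA3 genes had no such close neighbours. Bok reached 0.71 with Tceanc2 and Cttn and 0.70 with Rbm4, and Amigo2 0.70 with Tbc1d8b, 0.69 with Srl and 0.68 with Sgpp1. Iyd reached 0.68 with Dsp, which is in the dentate list, 0.66 with Mfsd13b and 0.65 with Prox1os. Chn1os3 and Prox1os are antisense genes, and without knowledge of strand in the counting their reads cannot be told from those of Chn1 and Prox1.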

How the data were processed

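Whole-number raw counts were deposited by the authors in 1 table, with 50559 gene symbols as rows and 36 input-fraction libraries as columns. Library preparation used poly(A) selection on 100 ng of RNA, with 40 M paired reads (M stands for mega) of 150 bp planned, per the labels' protocols. Trimmomatic 0.39 and build mm39 are named in the submitters' processing notes. Aligner, counter, annotation and use of strand: not given in the sources used here. Even numbers made up 54.7% of the counts of 1 to 10 and 50% of those over 1000, so mates of a pair may have been counted apart, which was not tested. Small counts, such as those of Iyd, may then be less precise than they look. Groups were read from the labels. No label ties each library to a separate mouse, and the spread that p-values measure may be technical in part. The 68 same-group pairs of libraries all differed by more than sampling noise (chi-square per degree of freedom 14.37 to 156.6).

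The tests used edgeR 4.0.16 (R 4.3.3) on the unmodified counts: filterByExpr by group (minimum count 10, minimum total 15), TMM scaling, 1 quasi-likelihood model with 8 group means (robust, with bias-adjusted deviances), and Benjamini-Hochberg adjustment within each of 18 comparisons at 0.05. Log2 CPM used a prior count of 2. Permutation tests used numpy 2.4.6, with ranks from scipy 1.17.1. All 9 members are described. A member's change is printed with its error where its unadjusted p was under 0.05, together with the member of smallest p in each interaction term. Of other lists, called genes are printed, and for the other CA1, CA2, CA3 and dentate lists the 2 smallest p-values in Tau carriers. The members, lists, tests and alternatives were chosen with earlier results of these data known. The source rule counts 5 CA1 genes among 9 names, and the first 4 were taken as CA1 here. Other settings were RLE scaling, no filter, covariates (library number, replicate block, dentate, striatal, choroid plexus and thalamic scores), the earlier deviance statistics, fits on only the groups compared, DESeq2 1.42.0, and leaving out libraries. The statistics were tested on simulated data. The value of 1 gene is left out here.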

Additional observations from a re-analysis of the deposited data

Results flagged for a closer look

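In groups of 4 to 10 libraries, a library's gap to its nearest neighbour was set against the range of its group by Dixon's test at 95%. Of 54 groups tested over the 9 genes, 5 were flagged, and chance flags about 1 in 20 groups. Wfs1 stood at 87.1 CPM in APP naive replicate 4, against 131 to 136 in the other 4 naive APP libraries. Wfs1 at 194 CPM in WT trained replicate 4 stood above 115 to 126 in the other trained WT libraries, and Pou3f1 at 60.5 CPM in the same library stood below 77.3 to 82.5. That library has the striatal score of 2.44. Bok at 53 CPM in APP/Tau naive replicate 1 stood above 43.3 to 46.0 in the other naive APP/Tau libraries. Iyd at 5.68 CPM in APP/Tau naive replicate 2 stood above 3.34 to 3.86 in the rest of its group.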

How the results depend on the processing

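No member was called in any of 856 fits under 48 other settings. Of 17 member changes with an unadjusted p under 0.05, all 807 refits kept the direction, and 155 no longer had a p under 0.05. The 17 were picked by their p in these same data, and most refits share nearly all their libraries. A kept direction was therefore likely beforehand. Counts of all genes called moved by more than 1.5 times as follows. Without the filter, 124 genes were called in Tau carriers. With the library number as a covariate, 244 were called in trained Tau against WT and 5 in Tau training. With the dentate score, 27 were called in trained Tau against WT, 1 in APP/Tau training and 1 in the Tau by training term. With the striatal score, 35 were called in trained Tau against WT and 1 in WT training. With the choroid plexus score, 4 were called in naive Tau, 155 in trained Tau against WT and 14 in APP carriers. With the thalamic score, added after the data were seen, 190 were called in trained Tau against WT, 8 in WT training and 1 in Tau training. On only the groups compared, 2 were called in naive Tau, 11 in naive APP/Tau, 230 in trained Tau, 25 in trained APP/Tau and 290 in Tau training. DESeq2 called 553 in trained Tau, 99 in trained APP/Tau, 1 in WT training, 423 in Tau training, 78 in APP carriers, 565 in Tau carriers, 7 in the averaged training comparison, 4 and 5 in naive and trained non-additivity, and 1 and 15 in the APP and Tau by training terms. The cause was not tested.

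The replicate numbers do not pair the libraries (none of 28 group pairs had all correlations over 0.1). With the replicate block, 4 genes were called in naive Tau, 1 in Tau training and 6 in the Tau by training term.

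Omitting WT trained replicate 4 and the library labelled Tau trained replicate 4 together, chosen after the data were seen, left 19 genes called in trained Tau against WT, 1 in WT training, 7 member correlations and 13 relations with scores.

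Leaving out single libraries gave 65 to 391 genes in Tau carriers (the lowest without APP trained replicate 1, the highest when replicate 3 of that group was omitted), 3 to 360 in trained Tau against WT (3 without Tau trained replicate 1, 360 without WT trained replicate 5) and 0 to 192 in Tau training (192 without Tau naive replicate 1). The other ranges were 3 to 9 in naive Tau, 7 to 10 in naive APP, 14 to 20 in naive APP/Tau, 7 to 11 in trained APP, 11 to 17 in trained APP/Tau, 15 to 30 in APP carriers, 0 to 6 in the Tau by training term, 1 to 3 and 0 to 1 in trained and naive non-additivity, 0 to 2 in WT training and averaged training, and 0 to 1 in APP training, APP/Tau training and the APP by training term. They gave 6 to 15 member correlations (6 without WT trained replicate 4) and 16 to 26 relations with scores (16 without WT trained replicate 4).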
